A study of Homo sapiens with 7 samples.

Results

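The regions described here were N-terminal-only NuMA regions, which are stretches of chromatin called as peaks with an antibody to the N terminus of NuMA and overlapping no peak called with an antibody to its C terminus. The cells were HCT116, a human colon cancer line, and the assay was CUT&Tag, in which an antibody brings the Tn5 transposase to its target and nearby DNA is cut and tagged for sequencing. On chromosomes 1 to 22, X and Y, 9488 of the 19518 N-terminal peaks (48.6%) met this rule, and the other 10030 had a C-terminal partner. The 6 peak lists of the series held 47959 peaks in all. The members were chosen by the overlap of the NuMA lists, so their width, fold, p and distance to a C-terminal peak are a description and were not tested. The peaks of histone H1 took no part in the choice.

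NuMA was profiled in wild-type HCT116 cells with 1 library for each antibody, from 10000 cells per assay. Histone H1 was profiled in 2 wild-type libraries, titled NC, and in 2 libraries of NuMA-depleted HCT116 cells, titled AID. The labels spelled out neither title, and they gave no clone, agent or duration for the depletion. They did not say whether replicates came from separate cultures, so the spread between libraries may be technical. The labels give CUT&Tag for every library, but the names of the NuMA peaks carry a ChIP-seq folder where those of the H1 peaks carry a CUT&Tag one, and the labels were followed. A library made with immunoglobulin G was not analysed here, and the control used in calling the NuMA peaks is not stated. The N-terminal peaks rested on 7 to 1225 recovered fragments at the summit. Estimated from the lowest background of each list, the C-terminal library had 60.4% of the N-terminal library's recovered depth. A region without a C-terminal peak is therefore one where none was called, which does not show that the C terminus was absent.

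NuMA is a long coiled-coil protein that organises the poles of the mitotic spindle and, between divisions, lies in the nucleus as part of its structural scaffold. Its N-terminal head takes part in binding the motor protein dynein, and its C-terminal tail carries the nuclear localisation signal and binds microtubules. Histone H1 is the linker histone, which sits where DNA enters and leaves the nucleosome and helps nucleosomes to pack.

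The N-terminal-only regions were short and of modest fold. Their width ran from 429 to 5051 bp with a median of 645 bp, and the middle of the distribution, from the first to the third quartile, spanned 517 to 918 bp. Partnered N-terminal peaks had a median width of 994 bp. A wide peak can meet a rule of 1 bp of overlap more easily, and the part of the rule in this difference was not tested. The medians differed by −349 bp (N-terminal-only minus partnered). The difference was −221 bp when partners had to share 50% of both peaks, and −154 bp when their summits had to lie within 200 bp. Regions wider than 2000 bp numbered 187 (1.97%) among the N-terminal-only and 1472 (14.7%) among the partnered peaks. The N-terminal-only regions covered 7504 kb, which was 36.6% of the length of all N-terminal peaks.

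The fold is the authors' enrichment of a peak's summit over the local background. It ran from 1.49 to 18.98 in the N-terminal-only regions, with a median of 4.01 and quartiles of 3.04 and 5.47. The partnered peaks had a median of 5.997 and a maximum of 34.9. A fold of at least 10 was reached by 174 N-terminal-only regions (1.83%) and by 1187 partnered peaks (11.8%). The −log10 p of the authors' caller had a median of 16.4 and ran from 5.16 to 86.9, against a median of 29.6 and a maximum of 180.8 for partnered peaks. These values were lower on the whole but overlapped widely, since 1759 N-terminal-only regions (18.5%) had a fold above the partnered median and 1137 (11.98%) a −log10 p above it.

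Fragments at the summit were recovered from the fold and the p of each peak. The N-terminal-only regions had a median of 53 fragments over a local background of 12.4, and the partnered peaks had 66 over 10.5. Both numbers differed between the sets, with fewer fragments and a higher background in the N-terminal-only set. The median fold was lower in the N-terminal-only than in the partnered peaks on 23 of the 24 chromosomes, and the exception was Y, with 8 such regions.

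**Figure D1:**
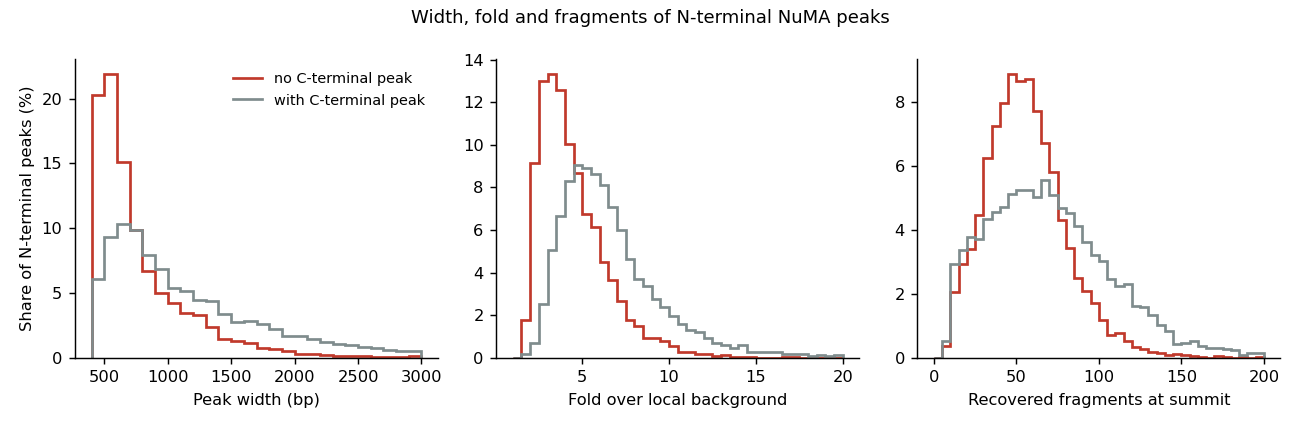
Share (%) of the 9488 N-terminal peaks without and the 10030 with a C-terminal peak, by width in bp, fold over local background and recovered fragments at the summit, with values beyond the axes left out. The N-terminal-only curves lie to the left for width and fold, with medians of 645 bp and 4.01 against 994 bp and 5.997. For fragments the median is lower, 53 against 66, but the partnered curve is wider on both sides. It holds 2.93% of its peaks at 10 to 15 fragments, against 2.06% of the N-terminal-only regions.

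The share of N-terminal peaks without a partner fell from the weakest to the strongest decile of the list. In the decile of lowest −log10 p, 1547 of 1953 peaks (79.2%) had no C-terminal peak, and in the decile of highest −log10 p 115 of 1951 (5.89%) had none. By fold, the shares were 89.2% in the lowest decile and 15.7% in the highest. By width, they were 76.4% and 12.9%. In each of the 3 rankings the share fell at every step. The antibodies' libraries differed in depth, whose part in these shares was not tested. Nor was the part of the rule of 1 bp of overlap in the shares by width.

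**Figure D2:**
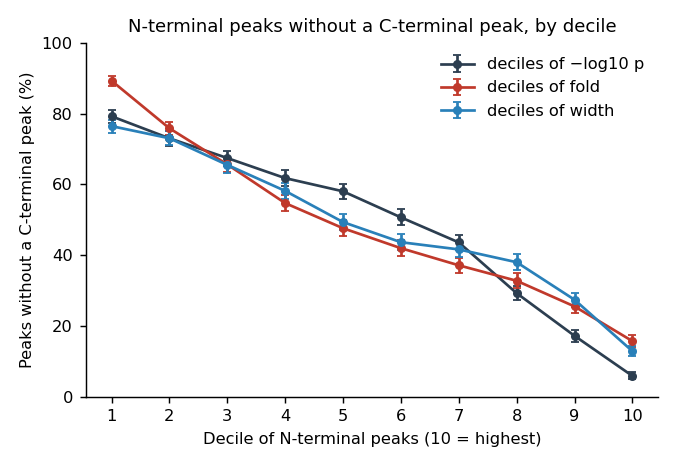
Share (%) of N-terminal peaks without a C-terminal peak in deciles of the list ranked by −log10 p, by fold or by width; bars are exact 95% binomial intervals and cover counting error only. All 3 lines fall, from 79.2%, 89.2% and 76.4% in the lowest decile to 5.89%, 15.7% and 12.9% in the highest.

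The region of highest fold lay on chromosome 19 at 49645219 to 49646656 (hg19, 1-based), with a fold of 18.98 from 49 fragments, 2.39 kb from the nearest C-terminal peak. Chromosome 19 held another 3 of the 10 regions of highest fold. They lay at 8070602 to 8071049, with a fold of 17.7 from 37 fragments, at 39847085 to 39847707, with 16.9 from 29, and at 10665564 to 10666268, with 15.9 from 45. Chromosome 10 at 75474992 to 75475760 had a fold of 17.4 and chromosome 16 at 67226083 to 67226803 one of 17.2. The other 4 had folds between 14.5 and 16.9. One was found on chromosome 1 (17012288 to 17012893) and one on chromosome 22 (20920429 to 20921258), with the remaining pair on chromosome 17 (starting at 42090148 and ending at 42090723) and chromosome 12 (starting at 6949775 and ending at 6950449). Each of the 10 had fewer fragments (25 to 49) than the median member, over a background between 0.773 and 1.90. None of the 10 overlapped an H1 peak of any list.

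Ranked by −log10 p instead, a ranking added after the values were seen, other regions led. Chromosome 17 at 72868652 to 72869378 had a −log10 p of 86.9 from 185 fragments at a fold of 6.51. It was followed by chromosome 19 at 11849035 to 11849867, with 135 fragments and a fold of 9.39, and chromosome 19 at 50833787 to 50834615, with 109 fragments and a fold of 12.8. These 3 held more fragments than the 10 of highest fold, and their nearest C-terminal peaks lay 5.92, 43.3 and 0.983 kb away.

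Many N-terminal-only regions were neighbours of C-terminal peaks. The median gap to the nearest C-terminal peak was 10.2 kb, with quartiles of 2.85 and 57.8 kb. A gap of at most 1 kb was found for 886 regions (9.34%) and of at most 10 kb for 4697 (49.5%). At the far end, 1832 regions (19.3%) lay over 100 kb and 343 (3.62%) over 1 Mb from any C-terminal peak. The 3842 C-terminal-only peaks lay nearer to the other list, with a median gap of 6.90 kb and 353 of them (9.19%) over 100 kb away. These gaps were measured to lists of unequal length, 14240 C-terminal and 19518 N-terminal peaks.

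The members just inside the rule missed a C-terminal peak by a few bases. Chromosome 14 at 105687738 to 105688263 had a gap of 1 bp and a fold of 5.07, chromosome 1 at 227058475 to 227059117 one of 10 bp and 3.87, and chromosome 6 at 35053839 to 35054450 one of 33 bp and 3.89. Just outside it, chromosome 7 at 1528554 to 1529409 shared 8 bp with a C-terminal peak at a fold of 3.77. Chromosome 19 at 1473920 to 1475361 shared 13 bp at a fold of 5.03, and chromosome 9 at 139368012 to 139368938 shared 19 bp at a fold of 9.07. The folds on the 2 sides of the rule overlapped.

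The members of fold 6 or more that lay farthest from a C-terminal peak were all on the long arm of chromosome X. They lay at 100306596 to 100307198 (fold 9.85, 37 fragments), 100352818 to 100353382 (11.3, 19 fragments) and 102941950 to 102942704 (12.5, 37 fragments), with gaps of 14.5, 14.4 and 11.9 Mb. The first of them overlapped an H1 peak in 3 of the 4 H1 lists, with H1 folds of 6.78 and 6.85 in the wild-type lists and 6.75 in depleted replicate 1. The other 2 overlapped none.

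The share of N-terminal peaks without a partner differed between chromosomes. It was lowest on chromosome 19, with 1170 of 2950 peaks (39.7%, exact 95% interval 37.9 to 41.5), and on chromosome 17, with 791 of 1927 (41.0%, 38.8 to 43.3). Chromosomes 11, 16 and 22 followed with 42.0%, 44.0% and 46.0%. It was highest on chromosome 21, with 176 of 239 (73.6%, 67.6 to 79.1), followed among chromosomes with over 100 peaks by 13 (67.3%), 18 (63.5%), 4 (62.1%), 15 (61.1%) and X (60.9%). On Y it was 8 of 11. Chromosome 21 stood above the intervals of 4, 15 and X, whereas its interval overlapped those of 13 and 18. On 16 of 24 chromosomes over 50% of the N-terminal peaks had no partner. These intervals cover counting error in 1 library per antibody, and peaks that lie side by side are not independent.

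Chromosome 19 still held the most members, 12.3% of all N-terminal-only regions against 17.7% of the partnered peaks. Chromosomes 1 and 17 came next with 9.01% and 8.34%, against 8.38% and 11.3% of the partnered peaks. Chromosomes 4 and 13 held 2.98% and 1.43% of the members and 1.72% and 0.658% of the partnered peaks. Chromosome 19 is gene-rich and chromosomes 4, 13 and 18 are gene-poor for their length, and gene content was not tested here.

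**Figure D3:**
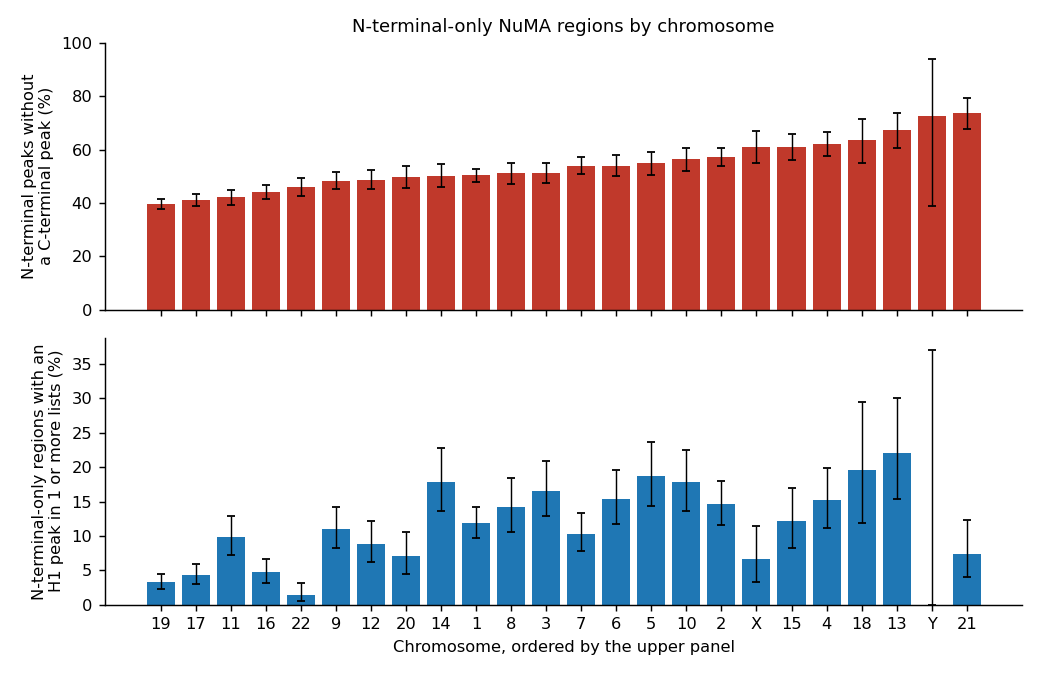
Upper panel, share (%) of N-terminal peaks without a C-terminal peak on each chromosome; lower panel, share (%) of those N-terminal-only regions that overlap an H1 peak of at least 1 list; bars with exact 95% binomial intervals. The upper share runs from 39.7% on chromosome 19 to 73.6% on chromosome 21, and the lower from 1.48% on chromosome 22 to 22.1% on chromosome 13, with 0 of 8 on Y.

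Many members had another member nearby. For 5476 of them (57.7%) the nearest other N-terminal peak was itself N-terminal-only, against 3826 (38.1%) of the partnered peaks. Chained across gaps of at most 10 kb between members, 4392 regions (46.3%) fell into 1537 clusters of 2 or more. Of the partnered peaks, 6540 (65.2%) had another partnered peak within the same distance. Another N-terminal peak of either kind lay within 10 kb of 61.4% of members and 75.9% of partnered peaks. Of these clusters, 172 held 5 or more members, with 1080 regions in all. The other 5096 members stood singly, with no other member within 10 kb, though some had a partnered peak within that distance. Clustered and single members had similar median folds of 3.92 and 4.12.

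The largest cluster, on the short arm of chromosome 4 at 1745718 to 1796530, held 19 members in 50.8 kb. Their folds ran from 1.90 to 4.89 with a median of 3.24, and 3 partnered peaks lay among them. The next, on chromosome 9 at 137242278 to 137312453, held 12 members of median fold 3.36 and 6 partnered peaks in 70.2 kb. Another, on chromosome 19 at 1884644 to 1948249, held 10 members of median fold 4.34 and 7 partnered peaks in 63.6 kb. Another 4 clusters also had 10 members, and the one on chromosome 19 had the highest fold among these. No member of the 3 clusters overlapped an H1 peak.

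In windows of 1 Mb, the highest count was 84 members between 1 and 2 Mb on chromosome 19, beside 183 C-terminal peaks. Windows at 139 to 140 Mb of chromosome 9 and 105 to 106 Mb of chromosome 14 had 75 and 73. The 178 densest of the 1573 windows with a member held 50% of them. At the other extreme, 399 windows held N-terminal peaks and no C-terminal peak, with 687 members in all. The fullest of these had 7 members each and lay at 60 to 61 Mb of chromosome 11, 151 to 152 Mb of chromosome 6 and 30 to 31 Mb of chromosome 7. The longest run of consecutive N-terminal peaks without a partner had 20 members over 35.0 Mb of chromosome 9 (38067163 to 73028697), a stretch that spans the centromere and held 7 C-terminal peaks that met no N-terminal peak.

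Few N-terminal-only regions carried an H1 peak. In wild-type replicate 1 it was 622 of 9488 (6.56%, exact 95% interval 6.07 to 7.07), against 6.75% of all N-terminal peaks. In wild-type replicate 2 it was 565 (5.95%, 5.49 to 6.45) against 6.38%. Depleted replicate 1 gave 397 (4.18%, 3.79 to 4.61) against 4.54%, and depleted replicate 2 gave 189 (1.99%, 1.72 to 2.29) against 2.02%. The members' shares lay close to those of all N-terminal peaks in every list. At least 1 H1 list was met by 945 members (9.96%, against 10.7% of all N-terminal peaks) and all 4 lists by 79 (0.833%, against 0.835%).

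Both wild-type lists covered more of the members than both depleted lists. The share averaged 6.26% ± 0.42 over the wild-type libraries and 3.09% ± 1.55 over the depleted ones (SD, n = 2), a difference of 3.17 percentage points (exact two-sided permutation p = 0.333, the smallest that 2 against 2 libraries can give; 0.444 after Benjamini-Hochberg adjustment over 4 comparisons). The wild-type lists held 4552 and 5553 H1 peaks and the depleted ones 2616 and 1480. With each list reduced to its 1480 peaks of highest −log10 p the difference was −0.19 points (exact permutation p = 0.667), so its direction did not hold for lists of equal length.

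Counted from the H1 side, 13.7% and 10.2% of the wild-type H1 peaks lay on an N-terminal-only region, and 15.2% and 12.8% of the depleted ones. The ranges overlapped. The mean was 11.9% ± 2.5 for the wild-type libraries, and for the depleted ones it was 14.0% ± 1.7 (SD, n = 2), a difference of −2.05 points (exact permutation p = 0.667, adjusted 0.667).

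Against partnered N-terminal peaks, the result depended on whether regions or bases were counted. In each of the 4 H1 libraries a smaller share of N-terminal-only than of partnered regions had an H1 peak, with differences of −0.384 and −0.835 points in the wild-type and −0.701 and −0.0618 points in the depleted lists. The mean difference was −0.495 points (exact sign-flip permutation test over libraries, two-sided p = 0.125, the smallest that 4 libraries can give; adjusted 0.25). Per Mb of covered length the order was the opposite, which follows from the widths: partnered peaks were 1.64 times as wide on average (1295 against 791 bp), so equal shares of regions would give a ratio near that value. The N-terminal-only regions had 82.9 and 75.3 H1 peaks per Mb in the wild-type and 52.9 and 25.2 in the depleted lists, and the partnered peaks 53.7 and 52.5, and 37.7 and 15.9. The ratio was 1.54 and 1.43 for the wild-type H1 lists, and for the depleted ones 1.40 and 1.59, a mean log2 ratio of 0.58. It restates the difference in width together with that in shares and is no separate evidence on H1. With 4 libraries the difference in shares could not pass a threshold of 0.05. Within quartiles of N-terminal peak width the mean difference in shares was −0.189 points (exact sign-flip permutation p = 0.25). In quartile 1, the narrowest, members had the higher share in all 4 lists (5.52% against 4.10% in wild-type replicate 1). In quartile 2 members were again higher in all 4 (6.94% against 6.93% in wild-type replicate 2). In quartile 3 partnered peaks were higher in all 4, and in quartile 4 in all but depleted replicate 1.

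Both comparisons turned with the definition of a region. The difference in shares was 0.161 points when a gap of more than 1 kb was required of the members, and 0.356 points when the N-terminal list was reduced to the length of the C-terminal one. It was 0.0539 points with H1 lists of equal length. The log2 ratio per Mb was −0.080 for a reciprocal overlap of 50% and −0.083 for summits within 200 bp. Under both of these definitions the difference in shares kept its sign, at −1.29 and −0.985 points. It was −0.95 points within quartiles of fold and, in a comparison added after the values were seen, −1.01 points within chromosomes. Among all recomputed differences in shares, 16 kept the sign and 3 changed it. The order of N-terminal-only and partnered regions thus differed between settings. The C-terminal-only peaks carried H1 less often than either, in 2.81% and 3.15% of cases in the wild-type and 1.59% and 0.885% in the depleted lists. Per Mb of their length they had 44.5 and 49.8 H1 peaks in the wild-type and 25.5 and 14.2 in the depleted lists. Those values lay nearer to the partnered ones, which were 53.7, 52.5, 37.7 and 15.9 in the same order. Neither difference was tested, nor was the part of width in them.

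H1 was more frequent on members far from a C-terminal peak, although most far members carried none. Among the 4697 members within 10 kb of a C-terminal peak, 1.43% and 2.11% overlapped a wild-type H1 peak and 1.06% and 0.405% a depleted one. Among the 1832 members over 100 kb away, the shares were 19.8% and 15.6% in the wild-type and 12.8% and 6.06% in the depleted lists. The difference was 18.4 and 13.5 points for the wild-type libraries, and 11.7 and 5.65 points for the depleted ones, so all 4 showed it, with a mean of 12.3 points. The gap classes were chosen with the values in view, and 4 libraries allow no exact sign-flip permutation p below 0.125. Averaged within chromosomes, the difference was 10.6 points, and within quartiles of width 12.03 and of fold 12.01 points. With H1 lists of equal length it was 6.09 points.

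The rise ran through all gap classes beyond 10 kb. In wild-type replicate 1 the share was 1.35% up to 1 kb, 1.44% from 1 to 10 kb, 6.49% from 10 to 100 kb, 18.3% from 100 kb to 1 Mb and 26.5% over 1 Mb. In depleted replicate 1 the same classes gave 1.13%, 1.05%, 3.82%, 11.8% and 17.2%. Within each list the last 3 classes rose in order, and up to 10 kb the exact intervals of the first 2 classes overlapped. The median fold of the members fell along the same classes from 4.54 to 3.59, while their median width stayed between 634 and 678 bp.

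**Figure D4:**
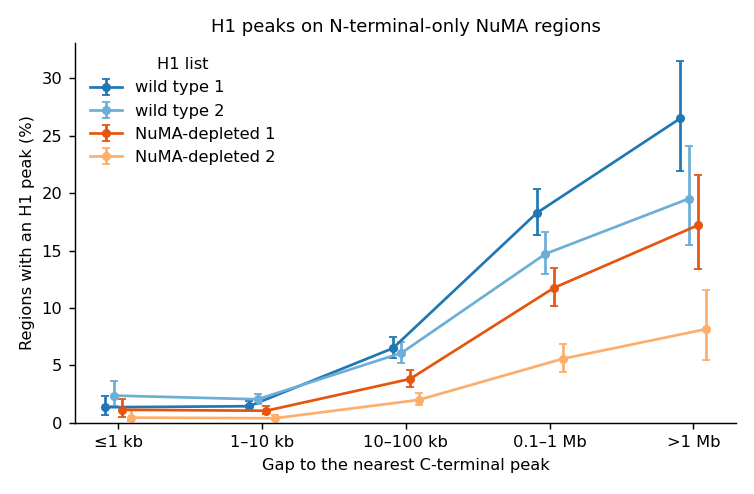
Share (%) of the N-terminal-only regions overlapped by a peak of each of the 4 H1 lists, by gap to the nearest C-terminal peak (classes, not to scale); bars are exact 95% binomial intervals and cover counting error only. All 4 lists rise beyond 10 kb, wild-type replicate 1 from 1.44% to 26.5% and depleted replicate 2 from 0.394% to 8.16%.

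Partnered peaks showed a rise of the same kind, so it was not particular to the members. Measured to the nearest other N-terminal peak, 1.75% of members with a gap of 1 to 10 kb and 20.9% of those with a gap of 100 kb to 1 Mb had an H1 peak in wild-type replicate 1. Among partnered peaks the same classes had 3.92% and 29.2%. Members stood farther from other N-terminal peaks than partnered peaks did, with median gaps of 4.95 and 2.63 kb. Compared within the gap classes, members minus partnered peaks gave −3.06 and −1.93 points for the wild-type lists, and −2.04 and −2.14 points for the depleted ones. The mean was −2.29 points (exact sign-flip permutation p = 0.125, the smallest possible), and this comparison was added after the values were seen. These are plain means over the classes, of which the one over 1 Mb held 100 members and 30 partnered peaks. Without that class the differences were −3.99 and −3.42 points for the wild-type lists and −2.55 and −0.844 points for the depleted ones, so depleted replicate 2 rested largely on it. With classes weighted by their number of members, they were −3.23, −2.96, −2.47 and −0.91 points in the same order. In depleted replicate 2 members lay above partnered peaks up to 1 kb, with 0.545% against 0.394%. Over 1 Mb members lay above partnered peaks in both wild-type lists, with 34% against 33.3% and 24% against 20%. In that class both sets had 20% in depleted replicate 1, and members had 6% against 13.3% in depleted replicate 2. Partnered peaks were also wider in every gap class. Their median widths, from the shortest gaps to the longest, were 1095, 991, 930, 960 and 903 bp. Those of members were 675.5, 629, 638.5, 676 and 676.5 bp. The part of width in the differences within gap classes was not tested.

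**Figure D5:**
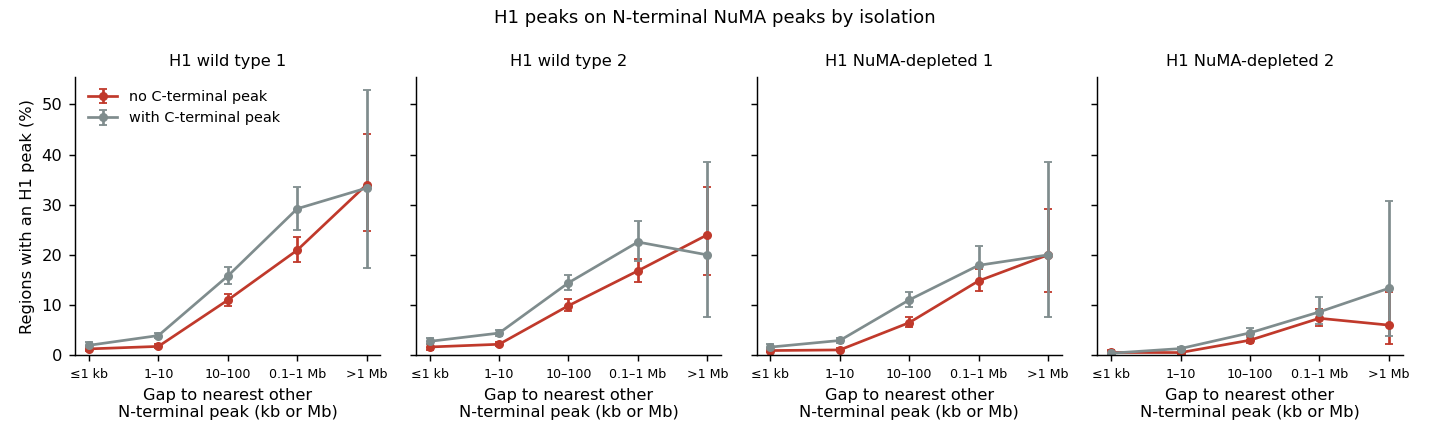
Share (%) of N-terminal peaks without and with a C-terminal peak that overlap an H1 peak, by gap to the nearest other N-terminal peak (classes, not to scale), with 1 panel per H1 list; bars are exact 95% binomial intervals. From 1 kb to 1 Mb the partnered peaks lie above the N-terminal-only regions in all 4 panels (15.8% against 10.99% at 10 to 100 kb in wild-type replicate 1), and over 1 Mb, with 30 and 100 peaks, the intervals overlap.

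Members with H1 differed from the others in position and in the medians of fragments, fold and width. The 945 members with an H1 peak in at least 1 list had a median gap of 124.8 kb to a C-terminal peak, and the 8543 without had 8.43 kb. Their median number of NuMA fragments at the summit was 71 against 52, while their median fold was lower, 3.82 against 4.04, and their median width was 677 against 642 bp. Fold and width also differed with position among all members. Their medians were 3.75 and 666 bp over 100 kb from a C-terminal peak, and 4.19 and 637 bp within 10 kb. The part of position in the medians of members with H1 was not tested. Members standing singly, some of them near a partnered peak, carried H1 in 10.9% and 9.62% of cases in the wild-type lists. In the depleted lists they did so in 6.95% and 3.22%. Clustered members carried H1 in 1.50% and 1.71% of cases in the wild-type and 0.979% and 0.569% in the depleted lists.

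The share with H1 also differed between chromosomes. An H1 peak of at least 1 list lay on 22.1% of the members of chromosome 13, 19.5% of those of 18 and 18.7% of those of 5. On chromosomes 22, 19 and 17 it lay on 1.48%, 3.25% and 4.30%. The median gap to a C-terminal peak was 57.7, 93.6 and 30.8 kb on 13, 18 and 5, and 6.17, 4.08 and 5.92 kb on 22, 19 and 17. Other chromosomes departed from this. Chromosome X had a median gap of 39.5 kb with 6.59% of its 167 members carrying H1, chromosome 21 had 20.4 kb with 7.39%, and chromosome 14 had 14.4 kb with 17.8%.

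H1 peaks on the members had a slightly higher median fold than H1 peaks elsewhere in all 4 lists, a difference that was not tested. Their median −log10 p was also higher, except in depleted replicate 2. There it was 12.2, against 12.4 for H1 peaks on no N-terminal peak. The median fold on members within their own list was 6.80 and 6.67 in the wild-type and 6.85 and 7.32 in the depleted lists, against 6.29, 6.09, 6.50 and 6.96 for H1 peaks on no N-terminal peak and 6.33, 6.09, 6.53 and 6.85 for those on partnered peaks. The H1 summits on members lay a median of 203 and 209 bp (wild-type) and 199 and 194 bp (depleted) from the NuMA summit, and between 48.7% and 52.4% of them within 200 bp.

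The member of highest fold with an H1 peak in all 4 lists lay on chromosome 5 at 87564295 to 87564945. Its NuMA fold was 12.3 from 23 fragments, and its H1 folds were 8.71 and 8.32 in the wild-type lists, with 7.33 and 9.24 in the depleted libraries. Chromosome 8 at 110345721 to 110347014 had a NuMA fold of 8.42 with H1 at 11.7 and 9.97 fold in the wild-type lists, and at 10.3 and 9.03 fold in the depleted ones. Chromosome 14 at 20922655 to 20923164 had a NuMA fold of 8.26 from 14 fragments, with H1 folds between 5.97 and 7.997. Chromosome 11 at 126173361 to 126174219 (NuMA fold 7.52, 78 fragments) and chromosome 10 at 43133364 to 43134178 (7.34, 118 fragments) completed the 5. Folds of different lists are not on 1 scale, so no change between wild-type and depleted cells is read from them. Of the 79 members with H1 in all 4 lists, 47 (59.5%) lay over 100 kb from a C-terminal peak and 10 (12.7%) within 10 kb.

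H1 regions on the members and on partnered peaks had overlapping intervals for the share still called after NuMA depletion. A member held 364 H1 regions shared by the wild-type lists, of which 242 (66.5%, exact 95% interval 61.4 to 71.3) were also called in at least 1 depleted list. For the 407 on partnered peaks it was 269 (66.1%, 61.3 to 70.7), and for the 1640 on no NuMA peak 928 (56.6%, 54.1 to 59.0). Depleted replicate 1 held 57.7% of the 364 and depleted replicate 2 held 31.3%. On H1 regions away from NuMA the same libraries held 46.6% and 34.1%, so the order of the sets differed between the depleted libraries. The median wild-type fold was 7.15 on the members, 6.58 on partnered peaks and 6.67 away from NuMA, and its part in the shares was not tested.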

How the data were processed

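CUT&Tag peak lists of 6 libraries were used (NuMA N terminus and C terminus, 1 each; H1 wild type and NuMA-depleted, 2 each). The submitters' processing notes name hg19 and, as the authors' tools, MACS2, Bowtie2, Picard and Trim Galore, with their roles and versions not given in the sources used here. Each of the deposited lists came from 1 library, and their peak names carry a q limit of 0.001. Each deposited row gave a score (not used), the authors' fold ratio, a −log10 p and a −log10 q, and a summit offset. An overlap of 1 bp counted as shared. Fragments at a summit were recovered from the fold and −log10 p as a Poisson tail, which came out whole (tolerance 0.01) for 100% of the N-terminal peaks. Relative depth is the lowest recovered background over the shortest peak width, which stands in for fragment length. For the C-terminal list, the lowest background was taken only among peaks whose recovered count was whole within the same tolerance. Intervals are exact (Clopper-Pearson), cover counting error only and treat peaks as independent. Libraries were compared by exact permutation tests. The Benjamini-Hochberg adjustment took in 4 comparisons, and p-values from other settings or added comparisons were not adjusted. Regions named were the 10 of highest fold, the 5 of highest fold with H1 in all 4 lists, the 3 farthest at a fold of at least 6, the 3 largest clusters and 3 on each side of the rule. The members, classes and comparisons were chosen with earlier results of these data known. Overlap, recovery and permutation code was tested on simulated data. Gene annotation and sequence of hg19 were not used here. Software: Python 3.11.15, numpy 2.4.6, scipy 1.17.1, pandas 2.3.3, matplotlib 3.10.9.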

Additional observations from a re-analysis of the deposited data

How the results depend on the processing

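Of 128 recomputed values, 89 kept their direction and, without a test, stayed within their interval, 33 moved beyond it and 6 changed sign. No comparison of H1 libraries could pass 0.05 under any setting, since their number is too small. H1 lists of equal length turned the wild-type minus depleted cover of members from 3.17 to −0.19 points and the member minus partnered cover from −0.495 to 0.0539 points. With them the share of H1 regions on members still called after depletion was 79.5% in place of 66.5%. The member minus partnered cover was 0.161 points with members over 1 kb from a C-terminal peak and 0.356 points with the N-terminal list cut to the C-terminal length. The log2 ratio of H1 peaks per Mb went from 0.58 to −0.080 (reciprocal overlap of 50%) and −0.083 (summits within 200 bp). The cause of these turns was not tested. The share of N-terminal peaks without a partner ran from 39.2% (equal NuMA list lengths) to 62.1% (summits within 200 bp).

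With 1 library left out, the wild-type minus depleted cover lay between 2.07 points (without depleted replicate 2) and 4.26 points (without depleted replicate 1). The share of H1 peaks on members gave −3.80 points without wild-type replicate 1, −0.309 without wild-type replicate 2, −0.851 without depleted replicate 1 and −3.26 without depleted replicate 2. The share still called after depletion was 31.3% when depleted replicate 1 was left out and 57.7% when depleted replicate 2 was. The member minus partnered cover ran from −0.64 to −0.382 points, the log2 ratio per Mb from 0.54 to 0.60 and the far minus near cover from 10.3 to 14.5 points.

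With the replicate number as a block, the cover difference was 3.17 points and the share of H1 peaks on members differed by −2.05 points (exact sign-flip p = 0.5 for both, the smallest that 2 pairs allow). The replicate numbers are not said to pair the libraries, and deviations of same-numbered libraries over 23 chromosomes correlated at −0.18. Pairing cannot change a mean difference, so the block values kept their direction by construction. With crossed numbers, added after the values were seen, the means were the same. Neither pairing could give an exact sign-flip p below 0.5.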
